A study of Mus musculus with 2 samples.

Results

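The miR-30 family was described in microRNA sequencing of mouse hippocampus, from 7 annotated genes of the 2202 miRNA genes counted. The members were taken by their gene names and by no cut on their values, though earlier results of these data were known. They are Mir30a and Mir30c-2 on chromosome 1, Mir30b and Mir30d on chromosome 15, and Mir30c-1, Mir30e and Mir30f on chromosome 4. All samples came from male B6CASTF1/J mice aged 14 days, a first-generation cross of the C57BL/6J and CAST/EiJ strains, with no treatment or mutation named in the labels. The series has 1 group of 2 biological replicates. Each label names 3 males by number, but both carry the same donor identifier, so part of the spread that the SDs measure may be technical. The tissue is labelled as layer of hippocampus. Levels are given in CPM, the reads of a gene's own strand per 1000000 reads assigned to any miRNA gene, from 3793934 counts in replicate 1 and 2554997 in replicate 2.

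A microRNA gene is transcribed as a hairpin, from which a short strand of either side, the 5p or the 3p arm, is loaded into an Argonaute protein and guides it to matching messenger RNAs. Target choice rests mainly on the seed, the bases next to the 5′ end of the arm. The miR-30 genes sit in vertebrate genomes as linked pairs, and their 5p arms share one seed. The family is broadly expressed, and it is known for repressing, among others, the epithelial-mesenchymal transition factor Snai1. A count on a hairpin gene does not separate the arms, and since a read spans a whole arm, counts were not divided by hairpin length.

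The seeds are shown first because they define the family, with bases 2 to 8 in capitals. RefSeq's table (GRCm38.p6) held mature sequences of 5 of the 7 genes, all except Mir30b and Mir30d. Among its 1738 mature arms, 5 carried the seed of miR-30a-5p, and they belonged to Mir30a, Mir30c-1, Mir30c-2, Mir30e and, outside the named family, Mir384 on chromosome X. The 5p arms and the single arm of Mir30f were as follows.
miR-30a-5p: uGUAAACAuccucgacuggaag
miR-30e-5p: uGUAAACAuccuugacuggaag
miR-30c-5p: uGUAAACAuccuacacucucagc
miR-384-5p: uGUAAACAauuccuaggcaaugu
miR-30f: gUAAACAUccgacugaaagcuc

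miR-30a-5p and miR-30e-5p differed at 1 of 22 bases, C13U counted from the 5′ end, with the miR-30a base first. miR-30c-5p matched both over its first 12 bases, and miR-384-5p matched miR-30a-5p over its first 8. The seed letters of the family stood 1 base nearer to the 5′ end in miR-30f, so that its own bases 2 to 8 were shared with no other arm of the table.

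The 3p arms held in RefSeq's table, shown for their own seeds, fell into pairs, and those of Mir30b and Mir30d could not be placed.
miR-30a-3p: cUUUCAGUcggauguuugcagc
miR-30e-3p: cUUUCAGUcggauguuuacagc
miR-30c-1-3p: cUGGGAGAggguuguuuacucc
miR-30c-2-3p: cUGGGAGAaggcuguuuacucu

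The pair of miR-30a-3p and miR-30e-3p differed at 1 base, G18A. The arms miR-30c-1-3p and miR-30c-2-3p differed at 3, G9A, U12C and C22U. Their seed was carried by 3 arms of RefSeq's table, so not by this pair alone. The printed 3p arms and the 5p arms of Mir30a, Mir30e and Mir384 each matched 1 annotated hairpin exactly. In contrast, miR-30c-5p matched 2, those of Mir30c-1 and Mir30c-2. The precursors of the miR-30c genes are printed to show how far that identity runs, with the longest run they share in capitals.
Mir30c-1: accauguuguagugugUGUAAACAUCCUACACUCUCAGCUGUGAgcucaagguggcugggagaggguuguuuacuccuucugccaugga
Mir30c-2: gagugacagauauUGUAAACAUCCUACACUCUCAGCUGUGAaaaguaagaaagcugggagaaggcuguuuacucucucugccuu

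The shared run was 28 bases long and held the whole 23-base 5p arm, in libraries whose label gives a size range under 30. Reads that mapped to several places were given to no gene in the deposited tables, and made up 26.3% of reads in replicate 1 and 37.5% in replicate 2. How many of them were miR-30c-5p cannot be read from the tables, so the levels of Mir30c-1 and Mir30c-2 are uncertain. The longest run shared with a non-overlapping hairpin was 18 bases for Mir30a, Mir30b, Mir30e and Mir30f and 16 for Mir30d.

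The family took 1.46% of the counts of replicate 1, with a 95% Wilson interval of 1.44 to 1.47, and 1.39% of those of replicate 2, with an interval of 1.38 to 1.41. This is a mean of 1.42% ± 0.0456 (SD, n = 2). All intervals and limits reflect counting error alone, because reads amplified by PCR cannot be traced to single molecules here. When unassigned reads were added to the total, the members held 0.400% and 0.491%. At a minimum of 2 CPM in each library, 6 of the 7 members were detected, against 426 of all 2202 genes. As a check of the tissue label, 11 of 15 neuronal marker genes reached that minimum. All 3 oligodendrocyte, 4 microglial and myeloid, 3 endothelial and mural, 3 erythroid, and 5 choroid plexus and ciliated markers were detected too. Of 7 muscle and heart markers 1 was detected, Mir206 at 27.4 and 35.6 CPM. The 4 muscle genes at 0 and the 4 neuronal genes not detected share a run of 20 bases with another hairpin. These neuronal genes are Mir124a-1, Mir124a-2, Mir124a-3 and Mir9-2. Every detected neuronal marker except Mir132 shares such a run too. Low counts of genes with such a run say little about the tissue. Mir208a, at 1.58 and 0.783 CPM, and Mir208b, at 0.264 and 0 CPM, share no such run and were not detected. The marker genes of all lists were named after their values were seen. These lists were summed per library: neuronal markers held 3.21% and 2.32% of counts, oligodendrocyte markers 0.406% and 0.125%, microglial and myeloid markers 0.174% and 0.164%, endothelial and mural markers 1.43% and 1.11%, erythroid markers 0.00754% and 0.0192%, and choroid plexus and ciliated markers 0.198% and 0.0939%, in replicates 1 and 2. The highest neuronal marker of replicate 1 was Mir132, at 17266 CPM there and 5947 CPM in replicate 2. Other neuronal markers went both ways, such as Mir128-1 at 4364 and 7285 CPM and Mir138-1 at 5090 and 3431 CPM. Members of each other summed list went both ways too. Mir219a-1, Mir150, Mir143 and Mir200b were higher in replicate 2, unlike the sums of their lists. Mir486 was lower there, unlike the erythroid sum. In the oligodendrocyte list Mir219a-2 stood at 3014 and 743 CPM and Mir219a-1 at 16.9 and 19.2 CPM. The sums thus describe none of these lists as a set. Which cells the miR-30 counts came from was not tested.

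Mir30d, the highest member, had 34895 counts (9198 CPM) in replicate 1 and 20832 counts (8153 CPM) in replicate 2. It alone made up 63.2% and 58.6% of the family's counts. With a mean of 8676 ± 738 CPM (SD, n = 2) it ranked 26th of all miRNA genes by mean CPM. Its neighbours in that order were Mir298 at 9540 ± 8971 CPM and Mir324 at 9263 ± 367 CPM above it, and Mir370 at 8039 ± 1804 CPM and Mir342 at 8017 ± 407 CPM below it. The libraries' ranges of all 4 overlapped that of Mir30d, so its exact rank is not fixed by these data.

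Mir30a, whose 5p arm represses the autophagy gene Becn1, had 11764 counts (3101 CPM) and 8470 counts (3315 CPM) in replicates 1 and 2. Mir30e had 7391 counts (1948 CPM) and 5261 counts (2059 CPM). Both lay below Mir30d in each library, and Mir30a lay above Mir30e, with no overlap between the ranges. Mir30d stood 2.97-fold and 2.46-fold over Mir30a, and Mir30a stood 1.59-fold and 1.61-fold over Mir30e.

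The other expressed members were more than an order of magnitude lower. Mir30c-2 had 531 counts (139.96 CPM) and 444 counts (174 CPM), Mir30b had 350 (92.3 CPM) and 296 (116 CPM), and Mir30c-1 had 292 (76.96 CPM) and 238 (93.2 CPM) in replicates 1 and 2. Mir30c-2 lay above Mir30b in both libraries, whereas the ranges of Mir30b and Mir30c-1 overlapped and these genes are not told apart by level. Mir30a, Mir30d and Mir30e together held 97.9% and 97.2% of the family's counts, and Mir30b, Mir30c-1 and Mir30c-2 held 2.12% and 2.75%. Exact permutation of 2 values against 2 cannot go below p = 0.333, so the order of levels is given as a description.

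**Figure D1:**
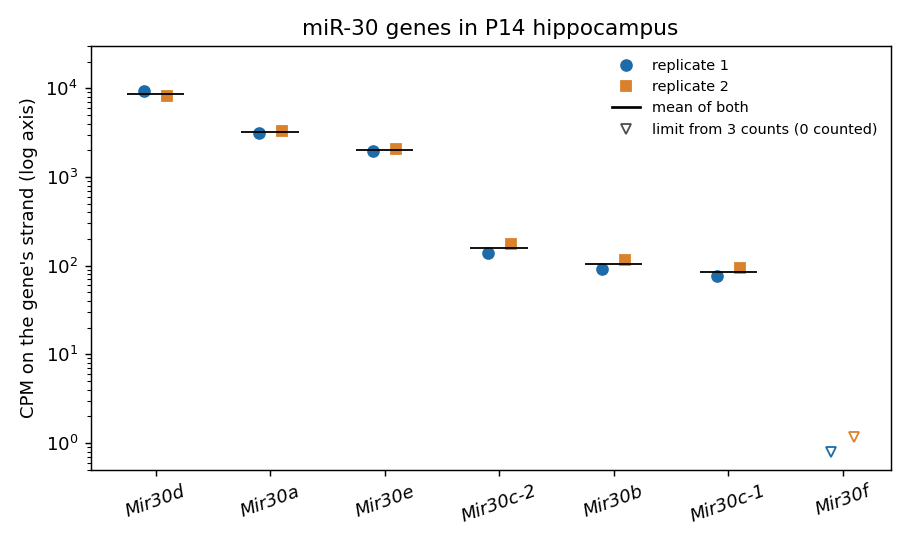
Level of each miR-30 gene in the 2 hippocampus libraries, in CPM on a log axis, with circles for replicate 1, squares for replicate 2 and a line at their mean. Mir30d, Mir30a and Mir30e lie between 1948 and 9198 CPM, and Mir30c-2, Mir30b and Mir30c-1 between 76.96 and 174 CPM. Open triangles mark the limit that 3 counts set for Mir30f, which had 0 counts.

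Mir384, which carries the family's seed on chromosome X and has been studied in synaptic plasticity of hippocampal neurons, had 725 counts (191 CPM) and 438 counts (171 CPM). Its range overlapped that of Mir30c-2, and it lay 10.2-fold and 12.01-fold below Mir30e. Its hairpin shared at most 12 bases in a row with another.

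The first locus spans the hairpins of Mir30a (mm10, positions 23272269 to 23272339 of chromosome 1, plus strand) and Mir30c-2 (23291701 to 23291784), 19.4 kb apart. Mir30a lies outside annotated genes of its strand, and Mir30c-2 lies in an exon of the long non-coding gene Gm27028. Together they reached 3241 and 3489 CPM, which was 22.3% and 25.1% of the family. Mir30a was 22.2-fold over Mir30c-2 in replicate 1 (95% exact interval 20.3 to 24.2) and 19.1-fold in replicate 2 (17.3 to 21.03).

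The second locus holds Mir30d (68341208 to 68341289 of chromosome 15, minus strand), in an exon of the long non-coding gene Gm20732, and Mir30b (68337415 to 68337510), outside annotated genes of its strand, 3.70 kb apart. They reached 9290 and 8269 CPM together, 63.8% and 59.4% of the family. Mir30d was 99.7-fold over Mir30b in replicate 1 (89.7 to 111) and 70.4-fold in replicate 2 (62.7 to 79.2). This was the widest gap within any of the 3 loci in both libraries.

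The third locus lies in introns of Nfyc, which encodes a subunit of the CCAAT-binding factor NF-Y. It holds Mir30e (120772606 to 120772697 of chromosome 4, minus strand) and Mir30c-1 (120769534 to 120769622), 2.98 kb apart, which reached 2025 and 2152 CPM, 13.9% and 15.5% of the family. Mir30e was 25.3-fold over Mir30c-1 in replicate 1 (22.5 to 28.5) and 22.1-fold in replicate 2 (19.4 to 25.3). The summed levels of the 3 loci did not overlap: the locus of Mir30d was highest and that of Mir30e lowest in both libraries.

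Whether a ratio within a locus differed between the libraries by more than counting error was asked with a two-sided Fisher's exact test, adjusted over the 3 loci. The ratio of Mir30d to Mir30b was 1.42-fold larger in replicate 1 than in replicate 2 (adjusted p = 4.23e-05, exact), and that of Mir30a to Mir30c-2 was 1.16-fold larger (adjusted p = 0.0359, exact). For Mir30e over Mir30c-1 the value was 1.15-fold, which did not pass (adjusted p = 0.138, exact). On the log2 scale the ratios averaged 6.38 ± 0.35 for Mir30d over Mir30b, 4.36 ± 0.15 for Mir30a over Mir30c-2 and 4.56 ± 0.14 for Mir30e over Mir30c-1 (SD, n = 2). Each gap was many times the spread between the replicates. Neither these SDs nor the intervals above cover miR-30c-5p reads given to no gene. How far such reads would lower the ratios over Mir30c-2 and Mir30c-1 cannot be read from the counts.

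**Figure D2:**
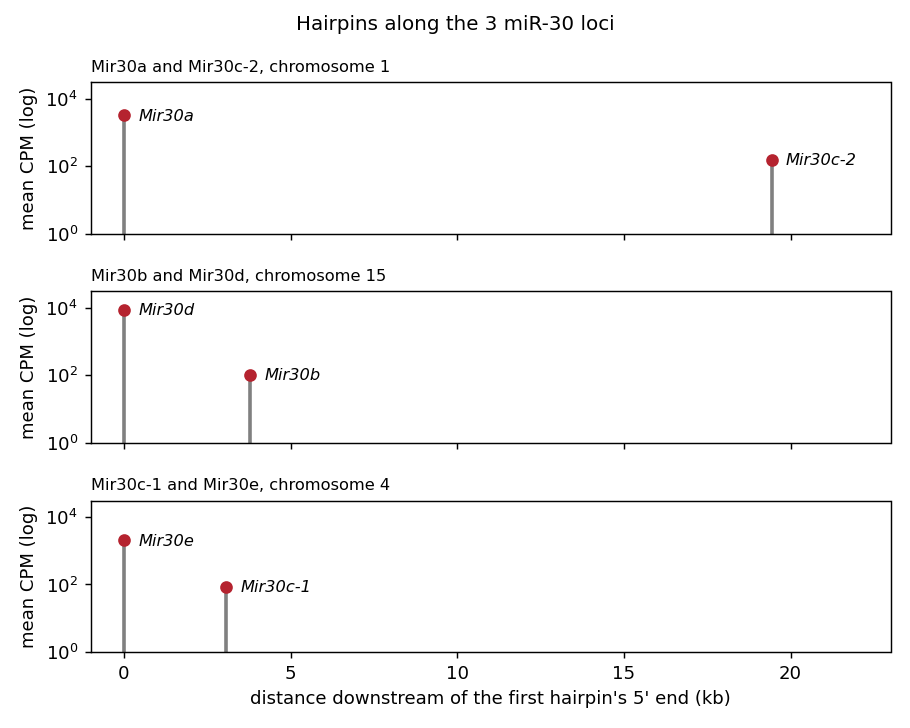
Hairpins of the 3 miR-30 loci placed by distance in kb downstream of the 5′ end of the first hairpin of each locus, with stems up to the mean CPM of both libraries on a log axis. The first hairpin is the higher one at each locus, 8676 CPM for Mir30d, 3208 CPM for Mir30a and 2004 CPM for Mir30e.

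At each of the 3 loci the hairpin that lies upstream on its strand was the higher one in both libraries. At the loci of Mir30a and Mir30e the lower hairpin was Mir30c-2 or Mir30c-1, whose levels are made uncertain by reads given to no gene. Whether this shaped the order there was not tested. For scale, neighbouring detected miRNA genes on one strand and at most 25 kb apart were taken over the whole table, a comparison chosen after the levels were seen. Of 112 such pairs outside the family, the upstream hairpin was higher in both libraries in 56 and the downstream one in 49. The log2 ratio of the miR-30 pairs, 4.36 or more in size, was reached by 33 of the other pairs (29.5%) in either direction, and the median size over those pairs was 2.84. Many of these pairs lie in the imprinted domain of chromosome 12, without which the upstream hairpin was higher in 46.8% of 62 pairs. Some of the other pairs, such as Mir181a-1 and Mir181b-1, also hold genes that share a run of 20 bases with another hairpin.

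**Figure D3:**
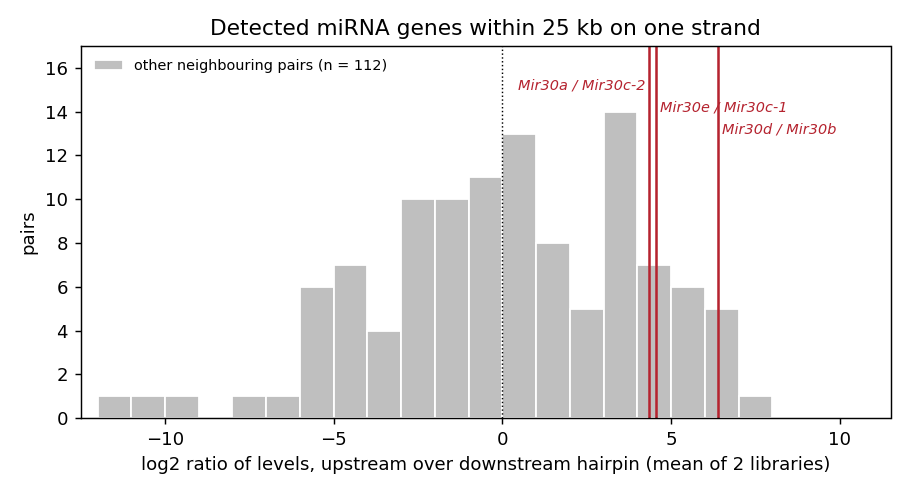
Log2 ratio of CPM, upstream over downstream hairpin, averaged over both libraries, for neighbouring detected miRNA genes at most 25 kb apart on one strand. Grey bars count the 112 pairs outside the family and red lines mark the miR-30 pairs at 4.36, 4.56 and 6.38.

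Mir30f is annotated over the same positions as Mir30e on the plus strand, and 19 of the 22 bases of its mature arm lie opposite miR-30e-3p. It had 0 counts in both libraries, which allows a level of up to 0.791 CPM in replicate 1 and 1.17 CPM in replicate 2 from 3 counts, by counting error only. The opposite-strand column of Mir30f held 7391 and 5261 counts, the same numbers that Mir30e had on its own strand. The other 6 members had 0 counts on their opposite strand in both libraries. In the column that ignores strand Mir30e was at 0 as well as Mir30f, and reads ambiguous between genes made up 1.58% and 2.11% of reads there and none in the stranded column. The same happened to 24 of the 426 detected genes, so the choice of column decides whether Mir30e is seen at all.

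Between the libraries, no expressed member differed by more than 1.26-fold. Mir30c-2, Mir30b and Mir30c-1 were each higher in replicate 2, by 1.24-fold, 1.26-fold and 1.21-fold, and so were Mir30a by 1.07-fold and Mir30e by 1.06-fold. Mir30d went the other way and was 1.13-fold higher in replicate 1. In an exact binomial test against the ratio of the library totals, two-sided and Benjamini-Hochberg adjusted over 507 genes, 5 of the 6 members tested differed, 1 higher in replicate 1 and 4 in replicate 2. Of all genes tested 52.1% differed, 25.2% higher in replicate 1 and 26.8% in replicate 2. The adjusted p-values of the exact test were 1.07e-42 for Mir30d, 8.47e-06 for Mir30a, 0.00209 for Mir30c-2, 0.00494 for Mir30e and 0.00945 for Mir30b, while Mir30c-1 at 0.0569 did not pass.

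That test covers counting error only and compares these libraries, not conditions. The spread was instead taken from a negative binomial model with the common dispersion of edgeR, a coefficient of variation of 0.377 estimated from the same libraries. In this model 0 of the 6 members passed (0.394% of all genes did). An unadjusted p under 0.05 was reached there by 0 members and by 23 of the 507 genes tested. So small a share over all genes leaves 0 of 6 saying little about the members. With TMM-scaled totals Mir30e did not pass the exact binomial test (adjusted p = 0.129). With DESeq2 size factors Mir30c-1 passed (adjusted p = 0.0454 by the exact test), as it did among genes with at least 50 counts (adjusted p = 0.042 by the exact test).

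The median size of the log2 ratio was 0.22 over the 6 members and 0.47 over all genes tested. Among 219 genes with a mean of 50 to 10000 CPM, a window set after seeing the members' levels, it was 0.42. Of those 219 genes, members included, 86 had a ratio no larger than the largest of a member, 0.33 for Mir30b.

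**Figure D4:**
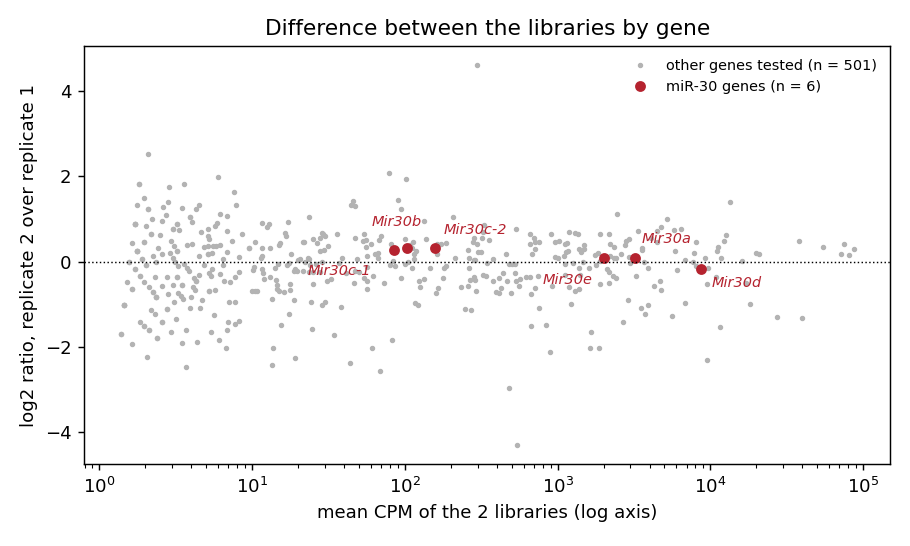
Log2 ratio of replicate 2 over replicate 1 against mean CPM on a log axis for the 507 genes tested, with the 6 expressed miR-30 genes in red. They lie between -0.17 for Mir30d and 0.33 for Mir30b.

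Other families with several gene copies were set beside miR-30. The assigned counts of miR-30 were a larger share than those of the miR-181 family, at 0.861% and 1.07%, the miR-26 family, at 0.362% and 0.698%, and the miR-29 family, at 0.151% and 0.141% in replicates 1 and 2. The ranges did not overlap with that of miR-30, and the differences were not tested. Reads of an arm found in several places were given to no gene, and an identical arm was shared by 2 of the 4 expressed miR-30 genes with a mature sequence in the table, 4 of 6 in miR-181, 2 of 3 in miR-26 and 2 of 4 in miR-29, so the shares are not ranked for the families as a whole. Mir30d was 119.5 times Mir30c-1 in replicate 1 and 87.5 times in replicate 2. The highest over the lowest expressed gene by mean level gave 143 and 128 times in miR-181 (Mir181d over Mir181b-1), 34.3 and 103 times in miR-29 (Mir29a over Mir29b-1) and 87.1 and 341 times in miR-26 (Mir26b over Mir26a-2). Against miR-30, the miR-29 ratio was thus lower in replicate 1 and higher in replicate 2, as was that of miR-26. The lowest gene of each family shares an identical arm with another gene, so these ratios are as uncertain as the shares. Mir29b-1 had 142 counts in replicate 1 and 31 in replicate 2.

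Genes whose hairpin shares a run of 20 bases with another were the fourth and sixth of 6 expressed members in miR-30, Mir30c-2 and Mir30c-1, while Mir30b, with no such run, stood between them by mean level. In miR-26 the sharing genes were the lower ones, Mir26a-1 at 69.1 ± 70.03 CPM and Mir26a-2 at 30.1 ± 13.8 CPM. In miR-29 they were Mir29c at 133 ± 27.005 CPM, Mir29b-2 at 32.8 ± 6.54 CPM and Mir29b-1 at 24.8 ± 17.9 CPM. In miR-181 a sharing gene, Mir181b-2 at 2787 ± 655 CPM, was second by mean, its range overlapping that of Mir181c at 2416 ± 89.2 CPM, which has no such run. The other sharing genes of miR-181 were lower, Mir181a-1 at 705 ± 188 CPM, Mir181a-2 at 113 ± 25.1 CPM and Mir181b-1 at 26.8 ± 5.84 CPM (SD, n = 2 each). Over all detected genes, the median level was 94.6 CPM for the 85 with a shared run and 85.97 CPM for the 341 without one. Only detected genes enter these medians. Of the 1087 genes with a shared run 85 were detected, against 426 of all 2202 genes, so the medians do not show what sharing does to counts.

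**Figure D5:**
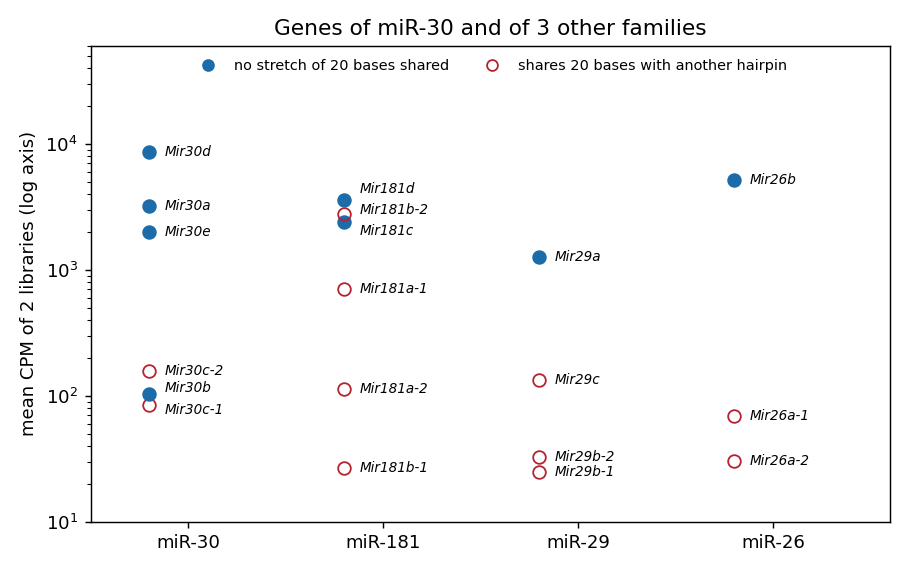
Mean CPM of 2 libraries on a log axis for the expressed genes of the miR-30 family and of the miR-181, miR-29 and miR-26 families, with open circles for genes whose hairpin shares 20 bases in a row with another miRNA hairpin. Mir30b, a filled circle at 104 CPM, lies between the open circles of Mir30c-2 and Mir30c-1.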

How the data were processed

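MicroRNA sequencing of total RNA from hippocampus was read from 2 deposited count tables, 1 per biological replicate, which hold raw counts per miRNA gene on mm10 with GENCODE M21, per the accompanying text of the files. Aligner, counter, trimming and filters were not given in the sources used here. With no header in the tables, the deposited count columns, for either strand, the gene's strand and the opposite strand, were told apart by their totals. The 4 rows for reads given to no gene stayed out of library sizes. Unmapped reads were 41.3% of replicate 1 and 20.7% of replicate 2, and mapped reads that met no annotated miRNA gene were 4.85% and 6.51%.

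CPM, log2(CPM + 0.5), a detection minimum of 2 CPM in each library and the tests were computed over the whole table. A quasi-likelihood test in edgeR needs more than 1 library a side, so a two-sided exact binomial test was used on genes with at least 10 counts in sum, adjusted at 0.05. It was run on simulated data with counting error only, which does not show how it behaves at the spread of these libraries. Alternatives used edgeR 4.0.16 and DESeq2 1.42.0 in R 4.3.3, other steps Python 3.11.15, scipy 1.17.1, numpy 2.4.6, pandas 2.3.3 and matplotlib 3.10.9.

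Hairpins came from GENCODE, and printed sequences from RefSeq. No genome sequence was used, so arms were matched to annotated hairpins only. The text names the members, genes with their seed, the 2 genes on each side of Mir30d by mean CPM, host genes, and in the other families the highest, lowest and sequence-sharing genes. Members and lists were chosen with earlier results of these data known. 1 count was worth 0.264 and 0.391 CPM.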

Additional observations from a re-analysis of the deposited data

How the results depend on the processing

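The order of the 3 loci by level was the same in the column that ignores strand, with TMM or DESeq2 scaling and with all reads as the denominator. In the column that ignores strand the locus of Mir30e and Mir30c-1 stood at 90.4 CPM and the log2 ratio of Mir30e over Mir30c-1 turned to -7.50. Mir30e has no counts in that column by its construction. The family's share was 1.30% there, and the locus of Mir30a and Mir30c-2 stood at 3574 CPM. With all reads as the denominator the share was 0.446%, and the loci stood at 2737 CPM for Mir30d and Mir30b, 1061 CPM for Mir30a and Mir30c-2 and 658 CPM for Mir30e and Mir30c-1. Without either replicate the share lay between 1.39% and 1.46%. The loci lay between 8269 and 9290 CPM, 3241 and 3489 CPM, and 2025 and 2152 CPM in the same order. The log2 ratios lay between 6.13 and 6.63 for Mir30d over Mir30b, 4.25 and 4.46 for Mir30a over Mir30c-2, and 4.46 and 4.65 for Mir30e over Mir30c-1. TMM and DESeq2 size factors moved no locus level, and pseudocounts of 0.1 or 1 CPM no ratio, by more than the spread between replicates. The number of members detected was 6 at minimums of 1, 5 and 10 CPM and 5 in the column that ignores strand. The number differing between the libraries, 5, was 4 with TMM totals or in the column that ignores strand, 6 with DESeq2 totals or at least 50 counts, 5 with no filter, and 0 with a negative binomial spread. That spread was fitted to both libraries as 1 group, so it includes their differences. Of all genes tested, 52.1% were called in the main setting and 0.394% with that spread. For the other settings no such share is given, so the counts of members called are not read as a result about the family. The share of other neighbouring pairs with the upstream hairpin higher lay between 46.8% and 50.9% with other distances, minimums or chromosomes, alternatives chosen after seeing the data. The group has 2 libraries, so no difference between loci could pass an exact test. Levels of Mir30c-1 and Mir30c-2 are made uncertain by reads given to no gene.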
